A study of Mus musculus with 18 samples.

Results

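Major histocompatibility complex (MHC) class I molecules show peptides from inside the cell to cytotoxic T cells. A set of 10 genes that make or load these molecules were followed through oxyhemoglobin exposure in BV2 cells, an immortalised mouse microglial line. They are H2-K1 and H2-D1 (heavy chains), B2m (the shared light chain), Tap1, Tap2 and Tapbp (peptide transport and loading), Psmb8, Psmb9 and Psmb10 (immunoproteasome) and Nlrc5 (transcriptional regulator). The genes were chosen by name, without a threshold on any value but with earlier results of these data known. All 10 were found among the 55487 gene identifiers of the count table. RNA was sequenced from the nuclear and the cytoplasmic fraction of untreated cells (0 h) and of cells given 10 µM oxyhemoglobin, the oxygen-carrying blood pigment, for 12 or 24 h. This gave 6 groups of 3 libraries (18 libraries). No untreated group was taken at 12 or 24 h, so exposure and time in culture cannot be told apart. The labels do not say whether the libraries of a group came from separate cultures. All cells are of 1 line, and no animal or other microglia were studied.

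In this pathway proteasomes cut proteins into peptides, and the transporter TAP, a pair of TAP1 and TAP2, carries them into the endoplasmic reticulum. Tapasin, the product of Tapbp, holds an empty heavy chain and beta-2-microglobulin near TAP until a peptide binds. Interferons are known to raise the whole set of genes, among them the immunoproteasome subunits, which take the place of the constitutive subunits, and NLRC5 is known as a coactivator at class I promoters. Resting microglia are known to hold little class I, and more during inflammation.

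Of the 10 genes, 7 lie in the MHC on chromosome 17 (GRCm38). Tapbp (33915899 to 33929292) and H2-K1 (33996017 to 34000347) come first along the chromosome. Psmb9 (34181987 to 34187764), Tap1 (34187553 to 34197225), Psmb8 (34197721 to 34201454) and Tap2 (34203527 to 34216321) form a cluster, and H2-D1 (35262730 to 35267499) lies beyond it. B2m is on chromosome 2 (122147686 to 122153083), and Psmb10 (105935735 to 105938444) and Nlrc5 (94434356 to 94527272) are on chromosome 8. Psmb9 and Tap1 point away from each other, with RefSeq start sites 225 bases apart.

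Promoter sequence is shown for the light chain and the heavy chains, because their RNA took different courses below although they form 1 complex. RefSeq (GRCm38.p6) promoter windows, from 250 bases before to 50 bases after a start site, were found for 8 of the 10 genes, all but Tap2 and Nlrc5. Capitals mark matches to motifs, read on both strands: in B2m the interferon-stimulated response element (GAAA, any 2 bases, GAAA), the kappa-B motif (GGGA, any 4 bases, CC) and the Y box CCAAT, and in H2-K1 the kappa-B motif, a shorter interferon motif GAANNGAAA, the X2 box TGACGC and the Y box. The first sequence covers chr2:122147487-122147685 on the plus strand and the second chr17:34000348-34000547 on the minus strand.
B2m: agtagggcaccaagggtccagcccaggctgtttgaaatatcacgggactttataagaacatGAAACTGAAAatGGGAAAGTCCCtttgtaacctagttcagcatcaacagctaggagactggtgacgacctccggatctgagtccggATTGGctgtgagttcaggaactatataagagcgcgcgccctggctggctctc
H2-K1: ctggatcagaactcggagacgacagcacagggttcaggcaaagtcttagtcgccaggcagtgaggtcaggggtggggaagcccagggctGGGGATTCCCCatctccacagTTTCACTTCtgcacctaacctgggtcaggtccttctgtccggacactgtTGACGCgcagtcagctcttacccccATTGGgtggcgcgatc

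The 2 heavy chain genes carry the same matches, which are set beside each other with the bases between them. The kappa-B and interferon stretches lie at chr17:34000429-34000458 (minus strand) for H2-K1 and chr17:35262923-35262952 (plus strand) for H2-D1. The stretches with X2 and Y boxes lie at chr17:34000359-34000388 (minus strand) and chr17:35262993-35263022 (plus strand).
H2-K1, kappa-B and interferon motif: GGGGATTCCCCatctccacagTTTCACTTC
H2-D1, kappa-B and interferon motif: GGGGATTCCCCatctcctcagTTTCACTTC
H2-K1, X2 and Y boxes: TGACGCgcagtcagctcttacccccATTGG
H2-D1, X2 and Y boxes: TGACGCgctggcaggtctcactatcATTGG
The shorter interferon motif was added after these windows had been read. It was present in 7.52% of 32851 RefSeq windows of the same length, and here in H2-K1 and H2-D1. The full response element was present in 3.44% of all windows and here in B2m, and the kappa-B motif in 20.7% and here in B2m, H2-K1 and H2-D1. The X2 box was found in 7.40% of all windows and here in both heavy chain genes, and the Y box in 37.4% of all and in 6 of these 8. The X2 box was sought only as TGACGC. The B2m sequence holds TGACGA, which differs in its last base and was not counted, so an X2 box in B2m is not excluded. The interferon-gamma activated site TTCNNNGAA was found in 8.30% of all windows and here in Psmb8. These matches are letters in a window and do not show that a factor binds there.

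The deposited counts are the authors' means over the 3 libraries of a group, so no value has a spread between libraries and no test could be made. Summed over 3 libraries, a group held between 14652566 and 22379595 reads. Levels are given as normalised CPM, counts per 1000000 after scaling within a fraction. They are shares of that fraction's RNA, and fewer cells with an RNA and less of it per cell cannot be told apart. Calls of higher or lower needed a difference of at least 2-fold between 2 groups and a 95% counting interval of the log2 ratio that excluded 0. That interval covers counting error only. The nuclear RNAs Malat1, Neat1, Xist, Meg3 and Kcnq1ot1 summed to between 67148 and 69035 CPM in the nuclear groups and between 2359 and 4187 in the cytoplasmic ones. Mitochondrial genes took 0.518% to 0.667% of nuclear and 5.08% to 6.76% of cytoplasmic reads, although Gapdh, listed as a cytoplasmic RNA, was higher in the nucleus at 0 h (log2 ratio 1.54). The listed cytoplasmic RNAs summed to 44715, 27713 and 42572 CPM in the cytoplasm at 0, 12 and 24 h, lowest at 12 h. Of 12 microglial and macrophage markers, 10 to 12 had reads in each group, with P2ry12 at 0 to 5 reads. Their summed level was 719, 505 and 428 CPM in the nucleus at 0, 12 and 24 h, and 275, 373 and 338 in the cytoplasm. Fibroblast markers had 0 reads in both 0 h groups, 85 in the cytoplasm at 12 h (5.14 CPM, from 2 of 4 markers) and 2 in the cytoplasm at 24 h. In the cytoplasm oligodendrocyte markers had 203, 75 and 262 reads and endothelial markers 13, 50 and 23. The part of these levels in the results was not tested.

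Before exposure, levels differed widely between the genes. Per kilobase of exon, with the exons of all annotated transcripts of a gene merged, B2m stood highest in every group. It was at 886 CPM in the untreated nucleus and 1606 in the untreated cytoplasm. Merging lengthens genes with many transcripts, so this is a rough scale between genes. H2-D1 came next in all 6 groups, at 49.4 in the nucleus and 53.7 in the cytoplasm at 0 h. In the untreated cytoplasm Psmb8 (8.11), H2-K1 (7.51) and Tapbp (6.91) followed, then Psmb9 (3.65) and Tap1 (1.71). The deposited TPM gave another order there: Psmb8 (9.71), Tapbp (7.58), Psmb9 (5.19), H2-K1 (4.08) and Tap1 (1.68). Psmb10 (0.367), Tap2 (0.189) and Nlrc5 (0.110) formed the bottom there, each resting on 14 to 21 reads over 3 libraries. The order in the untreated nucleus was B2m, H2-D1, H2-K1 (22.7), Tapbp (10.4), Tap1 (5.33), Psmb9 (3.13), Psmb8 (2.60), Nlrc5 (1.91), Tap2 (1.19) and Psmb10 (0.600). Spread between libraries is not known, so neighbours in these orders are not said to differ.

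**Figure D1:**
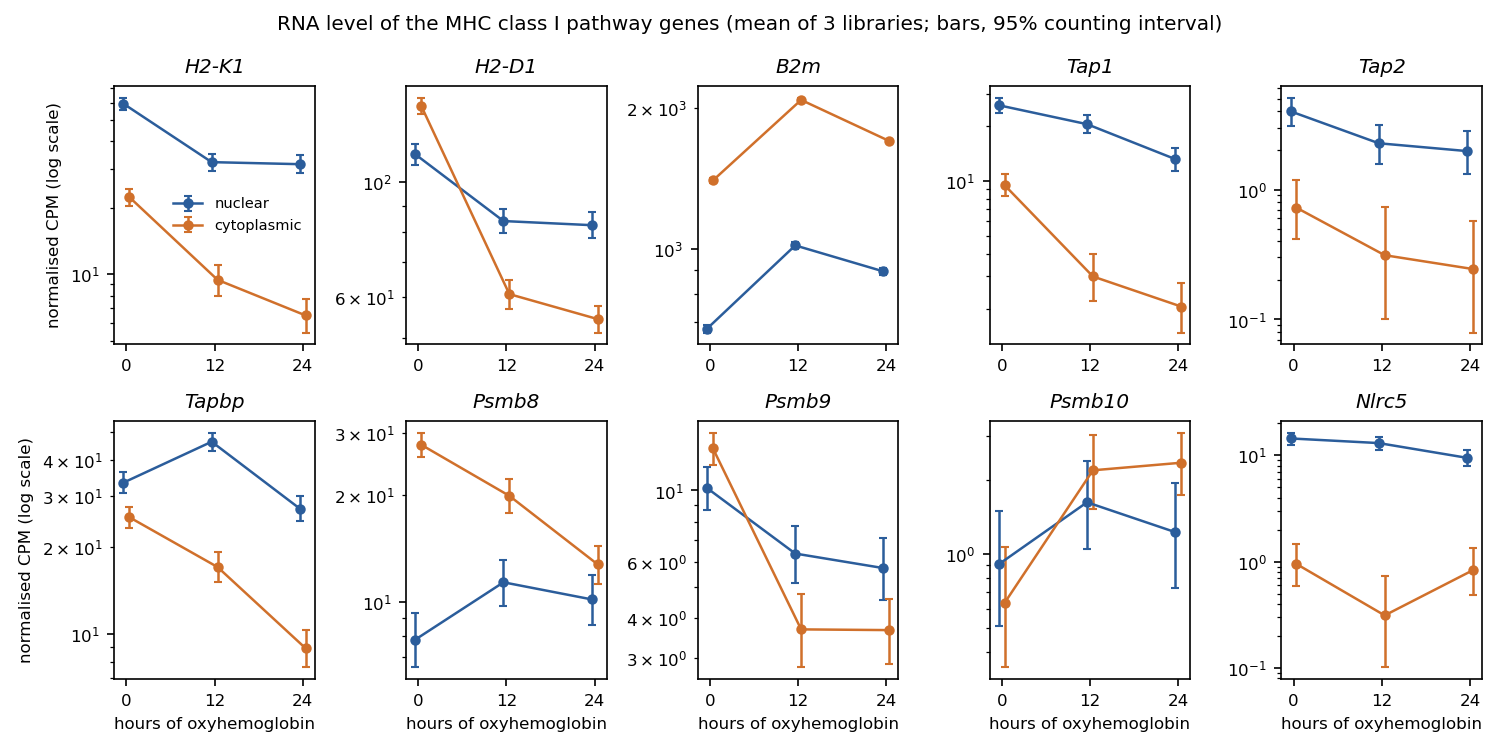
Normalised CPM (log axis, a separate range in each panel) of the 10 genes in nuclear (blue) and cytoplasmic (orange) RNA at 0, 12 and 24 h of oxyhemoglobin; points are means of 3 libraries and bars 95% counting intervals, which leave out variation between libraries. Cytoplasmic H2-D1 goes from 140 to 54.4 CPM while B2m goes from 1400 to 1699.

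In the cytoplasm, most of these RNAs were lower after exposure. At 12 h Tap1, Psmb9, H2-K1 and H2-D1 were called lower and Psmb10 higher, 4 lower and 1 higher of the 8 genes with enough reads to compare. Over all 11751 genes compared, 8.99% were called lower and 11.7% higher. At 24 h Tapbp and Psmb8 were also called lower, which made 6 lower and 1 higher of 8, beside 6.72% lower and 10.4% higher of 11748 genes. The median log2 ratio of the 8 genes was −0.89 at 12 h and −1.44 at 24 h, against −0.04 and −0.06 for all genes. Psmb10 passed the limit on reads only through the later groups, where it was high, so its call is partly fixed by that limit, and with a limit of 30 counts it was not compared. With that limit 4 of 7 genes were called lower at 12 h and 6 of 7 at 24 h. Tap2 and Nlrc5 were under the limit in the cytoplasm, which asked for a mean of about 10 counts in at least 1 group after allowing for depth.

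Nuclear RNA gave fewer calls on this scaling, over a partly different set of genes, and the difference between the fractions was not tested. At 12 h 0 of 9 genes compared were called in either direction (7.92% of 17295 genes were called higher and 6.64% lower). At 24 h Tap2 alone was called lower, 1 of 9, and 0 higher, beside 5.75% lower and 7.88% higher over all genes. The median log2 ratio was −0.34 at 12 h and −0.61 at 24 h, against 0.00 and −0.02 over all genes. Total counts gave 2 of 9 lower at 12 h and 4 at 24 h, log2(TPM + 1) gave 1 and 3, and log2(TPM + 0.1) gave 2 and 6, with 0 higher. Lower calls over all 17295 genes also rose, from 1148 at 12 h and 995 at 24 h. They were 1863 and 2056 with total counts, 1131 and 2337 with log2(TPM + 1), and 2008 and 4034 with log2(TPM + 0.1), so only log2(TPM + 1) at 12 h gave no rise. With a limit of 30 counts, under which Tap2 was not compared, 0 of 8 were called at 24 h. Psmb10 was under the limit in the nucleus. Between 12 and 24 h 0 of 9 nuclear genes were called (1.83% higher and 1.19% lower over all genes) and 0 of 8 cytoplasmic genes (2.9% and 1.89%).

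**Figure D2:**
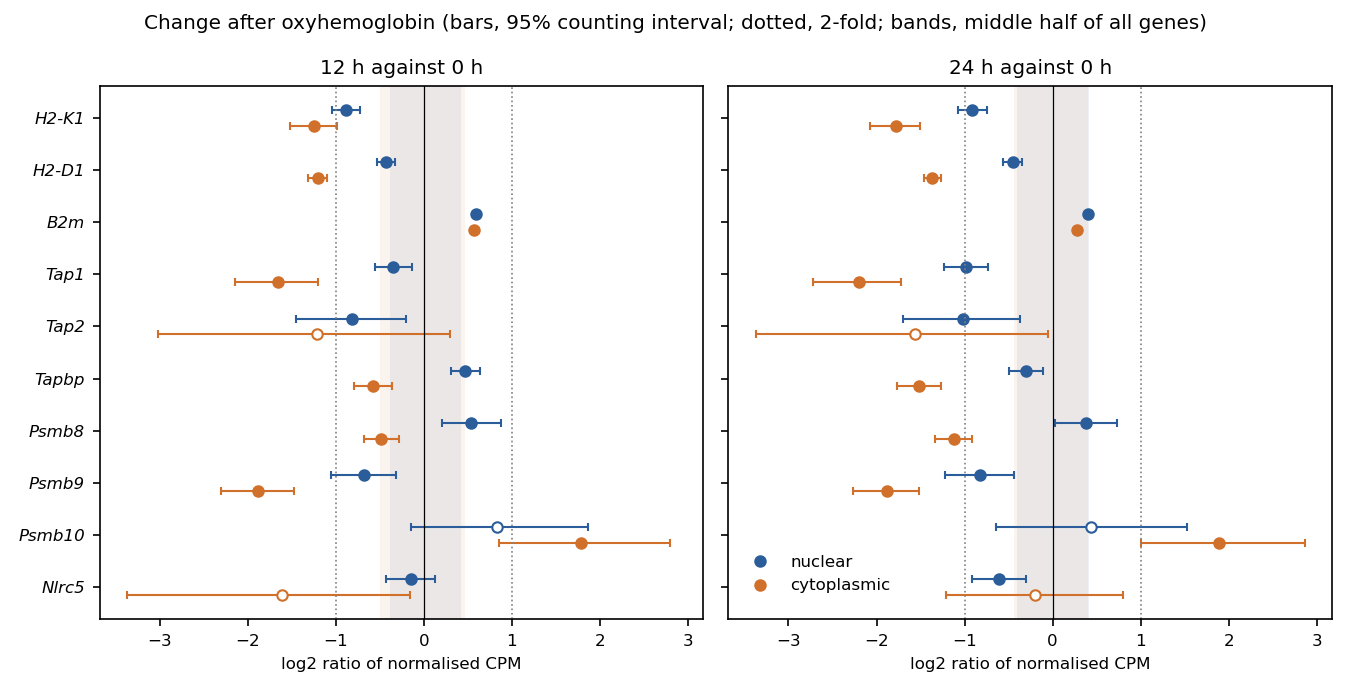
Log2 ratio of normalised CPM at 12 h (left) and 24 h (right) against 0 h for each gene, in nuclear (blue) and cytoplasmic (orange) RNA. Bars are 95% counting intervals, open points are genes under the limit on reads, dotted lines mark 2-fold, and shaded bands hold the quartiles of all genes. At 24 h the filled cytoplasmic points of 6 genes and the open cytoplasmic point of Tap2 lie left of the 2-fold line. The cytoplasmic point of Psmb10 lies right of the other 2-fold line.

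The heavy chains, which hold the peptide, were called lower in the cytoplasm and had ratios below 0 in the nucleus. H2-K1, 1 of the classical heavy chains, stood at 59.3, 32.2 and 31.6 normalised CPM in the nucleus at 0, 12 and 24 h. Its cytoplasmic level was 22.4, 9.43 and 6.50 CPM. Cytoplasmic H2-K1 was thus highest at 0 h and lowest at 24 h, and the nuclear level was alike at 12 and 24 h. Cytoplasmic H2-K1 was 3.44-fold lower at 24 h than at 0 h (log2 ratio −1.78, counting interval −2.07 to −1.50), and the nuclear log2 ratio was −0.91 (−1.07 to −0.75), under 2-fold. H2-D1, the other classical heavy chain measured, stood at 113, 84.1 and 82.5 CPM in the nucleus and at 140, 60.8 and 54.4 in the cytoplasm. It was lower at both later times, and most of the cytoplasmic difference was there at 12 h. Its cytoplasmic log2 ratio was −1.21 (−1.31 to −1.10) at 12 h and −1.37 (−1.47 to −1.27) at 24 h, and its nuclear ratio −0.43 and −0.45. The heavy chain genes resemble each other, and 9.63% of the 50-base stretches of H2-K1 transcripts and 12.8% of those of H2-D1 also occur in another gene, so part of the reads may be shared.

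B2m, whose product joins every classical heavy chain, did not follow them. It stood at 676, 1018 and 896 normalised CPM in the nucleus and at 1400, 2079 and 1699 in the cytoplasm. Each later value was above 0 h on this scale. The log2 ratio was 0.59 and 0.41 in the nucleus at 12 and 24 h and 0.57 and 0.28 in the cytoplasm, all under 2-fold, but with the deposited TPM it was as low as −0.21 in the nucleus at 24 h, −0.17 in the cytoplasm at 12 h and −0.25 there at 24 h. No direction is therefore given for B2m alone.

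Ratios of heavy to light chain RNA within a group need no scaling between groups. In the nucleus there were 8.77, 3.17 and 3.52 H2-K1 reads per 100 B2m reads at 0, 12 and 24 h, and in the cytoplasm 1.60, 0.454 and 0.383. For H2-D1 the ratio was 16.7, 8.26 and 9.21 per 100 in the nucleus and 10.02, 2.92 and 3.20 in the cytoplasm. Both heavy chains were lower relative to B2m at 12 and 24 h in both fractions. The cytoplasmic ratio at 24 h was 4.17-fold lower than at 0 h for H2-K1 (log2 change −2.06, interval −2.34 to −1.78) and 3.13-fold lower for H2-D1 (−1.64, −1.75 to −1.54). In the nucleus the log2 change at 24 h was −1.32 (−1.48 to −1.15) for H2-K1 and −0.86 (−0.97 to −0.75) for H2-D1. H2-K1 relative to H2-D1 also differed, with log2 changes of −0.46 (−0.65 to −0.27) in the nucleus and −0.42 (−0.71 to −0.12) in the cytoplasm at 24 h.

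Of the peptide transport and loading genes, Tap1 and Tapbp were lower in the cytoplasm, and Tap1 had the lowest cytoplasmic log2 ratio of the 8 genes at 24 h on this scaling. Tap1, which encodes 1 of the TAP subunits, stood at 25.9, 20.4 and 13.2 normalised CPM in the nucleus and at 9.46, 3.00 and 2.05 in the cytoplasm. It was lower at each later time in both fractions. In the cytoplasm the log2 ratio was −1.66 (−2.14 to −1.20) at 12 h and −2.20 (−2.72 to −1.72) at 24 h, 4.61-fold lower, from 209 reads at 0 h and 42 at 24 h. The nuclear ratio was −0.34 at 12 h and −0.98 (−1.23 to −0.73) at 24 h. Tap2, the other TAP subunit, stood at 4.00, 2.27 and 1.98 CPM in the nucleus, from 66, 35 and 29 reads. Nuclear Tap2 was at −1.02 (−1.70 to −0.37) at 24 h, barely past 2-fold, and its cytoplasmic level of 16, 5 and 5 reads was too low to compare. Tapbp, the tapasin gene, stood at 33.5, 46.4 and 27.2 CPM in the nucleus and at 25.4, 17.1 and 8.90 in the cytoplasm. Tapbp thus was highest at 12 h in the nucleus and lowest at 24 h in both fractions. Its cytoplasmic log2 ratio was −0.57 (−0.79 to −0.36) at 12 h and −1.51 (−1.76 to −1.27) at 24 h, and its nuclear ratio 0.47 (0.31 to 0.63) and −0.30 (−0.49 to −0.11).

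The strand setting of the counting is not given in the sources used here, and some of these genes overlap others on the opposite strand. Gm19412 covers 24.9% of the exonic bases of Tapbp, Gm15821 covers 14.1% of those of Tap2, and Gm20496 covers 14.7% of those of Psmb8. Tap1 and Psmb9 share 212 exonic bases, 3.87% of Tap1 and 5.79% of Psmb9. Zbtb22, on the same strand as Tapbp, shares 149 exonic bases, 4.11% of Tapbp. It had 471 to 3498 reads, at 28.5, 55.5 and 56.8 CPM in the nucleus and 158, 137 and 121 in the cytoplasm, and its part in the Tapbp values was not tested. Gm20496 is listed at 0 in all 6 groups, Gm19412 had 0 to 14 reads and Gm15821 had 1 to 52. Reads from the 2 genes of such a pair cannot be told apart in the shared bases.

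The 3 immunoproteasome subunits differed from each other. Psmb8 stood at 7.81, 11.4 and 10.2 normalised CPM in the nucleus and at 27.8, 19.9 and 12.8 in the cytoplasm. Its cytoplasmic level was highest at 0 h and its nuclear level lowest there. The cytoplasmic log2 ratio was −0.48 at 12 h and −1.12 (−1.34 to −0.91) at 24 h, and the nuclear ratio 0.54 and 0.38, the last of which was −0.23 with TPM. Psmb9 stood at 10.2, 6.36 and 5.72 CPM in the nucleus and at 13.5, 3.69 and 3.67 in the cytoplasm. In both fractions Psmb9 was highest at 0 h, with little between 12 and 24 h. Its cytoplasmic log2 ratio was −1.88 at 12 h (−2.31 to −1.47) and at 24 h (−2.27 to −1.51), and its nuclear ratio −0.68 and −0.83. Psmb10 went the other way in the cytoplasm, from few reads: 14, 35 and 48 over 3 libraries, or 0.634, 2.19 and 2.35 CPM. Its log2 ratio was 1.79 (0.86 to 2.79) at 12 h and 1.89 (1.01 to 2.86) at 24 h, and as low as 0.34 and 0.47 with TPM, under 2-fold. In the nucleus Psmb10 had 15, 25 and 18 reads.

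Each immunoproteasome subunit was set against the constitutive subunit whose place it takes, Psmb8 against Psmb5, Psmb9 against Psmb6 and Psmb10 against Psmb7. Psmb8 had 34.5, 19.0 and 16.9 reads per 100 Psmb5 reads in the nucleus and 22.9, 11.2 and 8.47 in the cytoplasm. Psmb9 had 18.7, 6.75 and 7.45 per 100 Psmb6 reads in the nucleus and 3.70, 1.15 and 1.38 in the cytoplasm. Both ratios were lower at 12 and 24 h than at 0 h in both fractions. At 24 h the cytoplasmic log2 change was −1.43 (−1.65 to −1.21) for Psmb8 and −1.42 (−1.79 to −1.05) for Psmb9, and the nuclear change −1.03 (−1.41 to −0.65) and −1.32 (−1.72 to −0.93). Psmb5 itself was called higher in the nucleus (22.7, 59.9 and 60.1 CPM, log2 ratio 1.40 and 1.41). Psmb10 had 34.1, 135 and 123 reads per 100 Psmb7 reads in the cytoplasm, a log2 change of 1.85 (0.78 to 2.92) at 24 h. That ratio rests on 26 to 41 cytoplasmic Psmb7 reads, whereas Psmb7 had 664 to 987 nuclear reads. Whether the counting set this uneven division of Psmb7 was not tested.

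**Figure D3:**
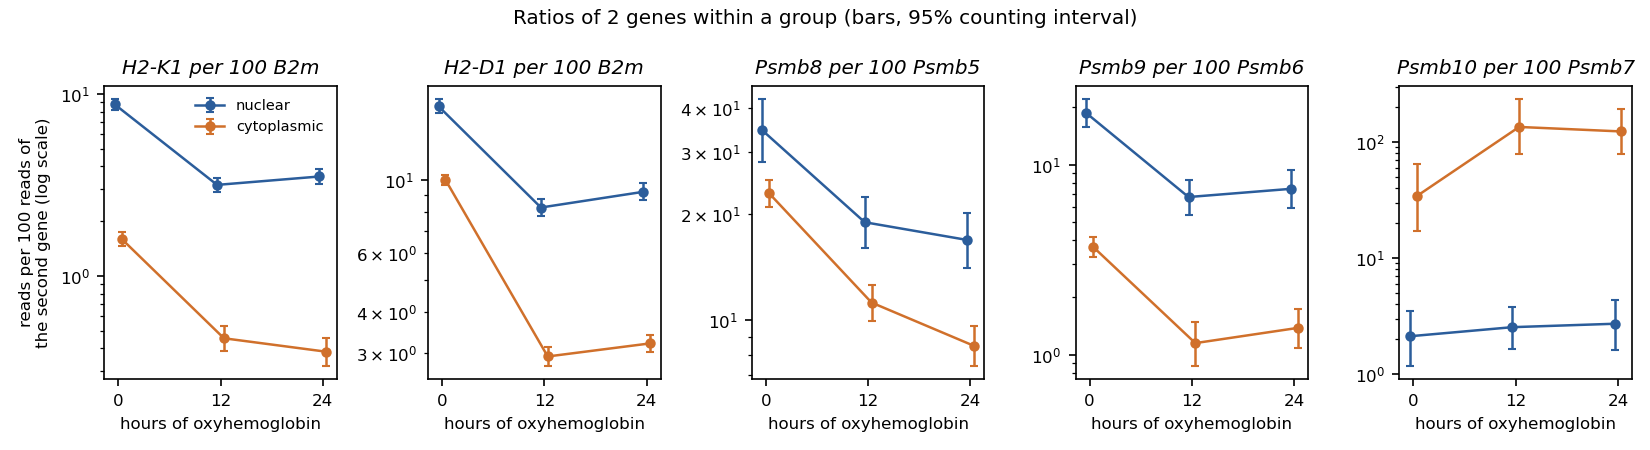
Reads of 1 gene per 100 reads of its partner within each group (log axis), in nuclear (blue) and cytoplasmic (orange) RNA at 0, 12 and 24 h, with 95% counting intervals as bars. The heavy chains relative to B2m, Psmb8 relative to Psmb5 and Psmb9 relative to Psmb6 are lower at both later times in both fractions, whereas cytoplasmic Psmb10 relative to Psmb7, from 26 to 41 Psmb7 reads, goes from 34.1 to 123.

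For Tap1 and Psmb9, the divergent neighbours, no change in proportion was detected at this depth. There were 255, 321 and 230 Tap1 reads per 100 Psmb9 reads in the nucleus and 69.9, 81.4 and 56.0 in the cytoplasm. The intervals of the log2 change against 0 h included 0 in both fractions at both times, running at 24 h from −0.60 to 0.30 in the nucleus and from −0.92 to 0.28 in the cytoplasm. Tap2 per 100 Tap1 reads was 15.4, 11.1 and 15.0 in the nucleus, with a 24 h change between −0.71 and 0.64.

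Nlrc5, the class I coactivator, took a larger share of nuclear than of cytoplasmic RNA, which does not say where most of its RNA lies. At 0 h 47.5% of all genes were called higher in the nucleus, and Nlrc5 passed the limit on reads only through nuclear groups. Its nuclear level was 14.4, 13.0 and 9.47 CPM at 0, 12 and 24 h, from 238, 201 and 139 reads. Cytoplasmic Nlrc5 had 21, 5 and 17 reads, too few to compare. The nuclear log2 ratio was −0.15 (−0.42 to 0.13) at 12 h and −0.61 (−0.92 to −0.30) at 24 h, under 2-fold, so nuclear Nlrc5 was lowest at 24 h by a difference smaller than the threshold.

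The balance of nuclear and cytoplasmic RNA was compared with all 6 groups scaled together. At 0 h Nlrc5 (log2 ratio 2.70) and Tap2 (1.24) were called higher in the nucleus, 2 of 10, and Psmb8 (−3.05), B2m (−2.27), Psmb9 (−1.63) and H2-D1 (−1.53) lower, 4 of 10. Most genes differed between the fractions, 47.5% higher and 32.7% lower in the nucleus. At 12 h Tap1, Tap2 and Nlrc5 were higher and Psmb8, Psmb10 and B2m lower in the nucleus, 3 and 3 of 10 (46.4% and 29.3% of all genes). At 24 h H2-K1 joined the former, 4 higher and 3 lower (45.8% and 28.9%). Tap2 and Nlrc5 passed the limit on reads only through nuclear groups, and Psmb10 only through cytoplasmic groups at 12 and 24 h. The location calls of these genes are therefore partly fixed by that limit. Psmb9 and H2-D1, called cytoplasmic at 0 h, were under 2-fold at both later times. This balance rests on the scaling. With total counts 4 of the 10 genes were called nuclear and 1 cytoplasmic at 0 h. At 12 h these calls were 5 and 1, and at 24 h 5 and 2. The median over all genes moved by 1.41, 1.10 and 0.96. Across the whole table, nuclear calls then numbered 10935, 10655 and 10345, and cytoplasmic calls 2923, 2616 and 2766. Nuclear calls thus made up 78.9%, 80.3% and 78.9% of calls across the table, in place of 59.2%, 61.3% and 61.3%.

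The nuclear-to-cytoplasmic ratio itself was higher after exposure for several genes. At 12 h it was at least 2-fold higher than at 0 h for Tap1 (log2 shift 1.44, 0.94 to 1.94), Tapbp (1.17), Psmb8 (1.15), Psmb9 (1.33) and Nlrc5 (1.59, 0.16 to 3.02), 5 of 10, and lower for 0. Nlrc5 passed the limit through its nuclear reads, and its value rests on 21 and 5 cytoplasmic reads, too few to compare within that fraction. Over all genes 10.8% were called higher and 6.1% lower. At 24 h Tap1 (1.30, 0.76 to 1.84), Tapbp (1.28), Psmb8 (1.57, 1.17 to 1.97) and Psmb9 (1.13) were higher, 4 of 10, and Psmb10 (−1.38, −2.69 to −0.07) was lower, 1 of 10, beside 8.8% and 7.68%. Psmb10 passed the limit only through the later cytoplasmic groups, where it was high, so its call is partly fixed by that limit. Its value rests on 14 and 48 cytoplasmic and 15 and 18 nuclear reads. With a limit of 30 counts 4 genes of 8 were higher and 0 lower. H2-D1 (0.98) and H2-K1 (0.94) lay just under 2-fold and B2m was at 0.20. The median shift of the 10 genes was 1.03 at 12 h and 0.96 at 24 h, against 0.30 and 0.19 for all genes. With total-count scaling 2 genes were called at each time, and the median over all genes moved by −0.32 and −0.46, so the number of shifted genes rests on the scaling. With that scaling higher calls made up 29.3% of calls at 12 h and 10.1% at 24 h over all genes, in place of 63.9% and 53.4%.

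**Figure D4:**
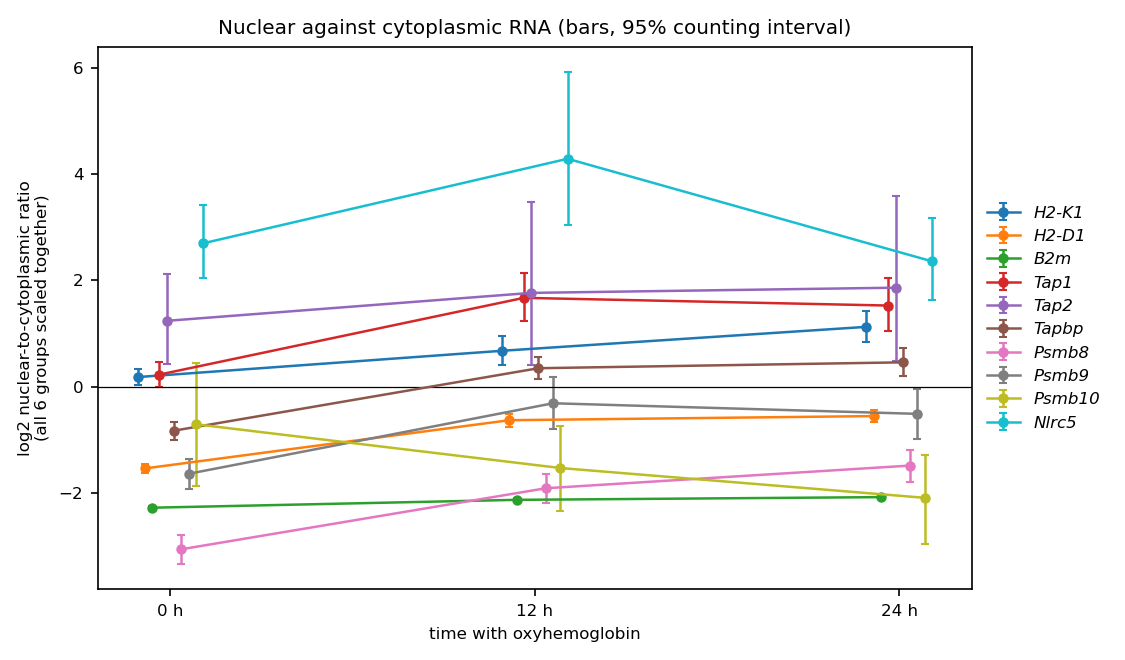
Log2 ratio of nuclear to cytoplasmic level (all 6 groups scaled together) of each gene at 0, 12 and 24 h, with 95% counting intervals as bars; values above 0 are higher in the nucleus. Tap1 goes from 0.23 to 1.53 and Psmb8 from −3.05 to −1.48 between 0 and 24 h, while B2m stays between −2.27 and −2.07.

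Genes around the pathway were read from lists of 78 genes, 77 of which were in the table. In the cytoplasm at 24 h, 4 of 46 compared were called higher and 5 lower, with a median log2 ratio of −0.09, near that of all genes. At 12 h 4 of 46 were higher and 1 lower. Over all genes 10.4% were higher and 6.72% lower there at 24 h, and 11.7% and 8.99% at 12 h. In the nucleus 8 of 56 were higher and 1 lower at 12 h (median 0.32), and 4 higher and 3 lower at 24 h (median −0.02). Over all genes these shares were 7.92% and 6.64% at 12 h, and 7.88% and 5.75% at 24 h. These counts rest on the scaling: with log2(TPM + 1), 0 were higher and 10 lower in the cytoplasm at 24 h and 0 and 7 at 12 h. With that setting 376 of 11748 genes were higher and 1364 lower there at 24 h, and 411 and 2245 of 11751 at 12 h. In the nucleus at 12 h it gave 2 higher and 1 lower of the listed genes, beside 524 and 1131 of 17295 genes. H2-Q4, a non-classical heavy chain, was the gene of these lists called lower at both times in both fractions.

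Among other class I heavy chains, 3 of 7 compared were lower in the cytoplasm at 24 h and 0 higher (6.72% and 10.4% of all genes). H2-Q4 stood at 5.93, 1.06 and 2.0 normalised CPM in the cytoplasm (log2 ratio −1.57 at 24 h) and at 25.5, 7.78 and 8.31 in the nucleus (−1.62). H2-T23, which encodes the ligand Qa-1, stood at 52.1, 29.4 and 23.4 CPM in the cytoplasm (−1.16). H2-T22 stood at 14.8, 8.18 and 6.80 CPM (−1.12). The list was not of 1 kind, since Hfe, which acts in iron uptake, was at −0.51, and H2-M3, which presents formylated peptides, was at 0.04.

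The helpers of peptide loading were under 2-fold in the cytoplasm. Of 9 compared in the cytoplasm, 0 were called at 12 or 24 h, and Erap1, which trims peptides, was at −0.84 and the chaperone Canx at −0.64 at 24 h. In the nucleus at 12 h 3 of 10 were higher and 0 lower (7.92% and 6.64% of all genes). The 3 were Pdia3 (log2 ratio 1.61), a partner of tapasin, Calr (1.16), a chaperone of loading, and Sec61a1 (1.04), a translocon channel. Pdia3 stood at 94.6, 289 and 236 CPM in the nucleus and at 240, 358 and 349 in the cytoplasm.

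Proteasome genes outside the immunoproteasome were read from 3 lists. Of the activator and assembly genes, 1 of 5 was called higher in the nucleus at 12 h and at 24 h (7.92% and 7.88% of all genes). In the cytoplasm 0 of 5 were called at either time. Over all genes 11.7% were higher and 8.99% lower there at 12 h, and 10.4% and 6.72% at 24 h. The interferon-inducible activator subunits Psme1 (−0.96) and Psme2 (−0.73) had the lowest cytoplasmic ratios of the 5 at 24 h. The constitutive catalytic subunits Psmb5 (0.31), Psmb6 (−0.47) and Psmb7 (0.04) were all under 2-fold there. In the nucleus at 12 h the intervals of all 3 lay above 0, with a median of 0.79. Among the other subunits of the core, 3 of 10 were higher and 0 lower in the cytoplasm at 24 h (10.4% and 6.72% of all genes): Psmb2 (1.41), Psma7 (1.29) and Psma4 (1.25). Psmb1 was at −0.90. At 12 h 3 of 10 were also higher there (11.7% of all genes), with a median of 0.70 and 8 of 10 intervals above 0, and in the nucleus the median was 0.50 with 8 of 11 intervals above 0. With log2(TPM + 1), 0 of these were called higher in the cytoplasm at either time, beside 411 of 11751 genes at 12 h and 376 of 11748 at 24 h.

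Regulators were read in both fractions. In the cytoplasm at 24 h 2 of 8 were lower and 0 higher (6.72% and 10.4% of all genes). Both are parts of the factor that carries type I interferon signals: Irf9 (6.02, 3.94 and 2.35 CPM, log2 ratio −1.36, −1.87 to −0.87) and Stat2 (3.94, 2.25 and 1.86 CPM, −1.08, −1.67 to −0.52). In the nucleus Stat2 was called higher at 12 h (12.1, 25.9 and 12.7 CPM, 1.10) and was at 0.08 at 24 h. Irf1, an activator of class I genes, was called lower in the nucleus at 24 h (12.8, 8.04 and 5.86 CPM, −1.13, −1.51 to −0.76), 1 of 12, beside 5.75% of all genes. Jak2, a kinase of interferon signalling that most cells express, is listed at 0 in all 6 groups, so a 0 in this table is not read as absence.

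Interferon-gamma RNA (Ifng) is also listed at 0 in each group. Ifnb1 had 1 to 8 reads. Of the receptors, Ifnar2 was called higher in the cytoplasm at 24 h (2.35, 5.87 and 5.23 CPM, log2 ratio 1.15), 1 of 3, beside 10.4% of all genes. Ifngr1 was called lower in the nucleus at 24 h (9.99, 5.25 and 4.70 CPM, −1.09), 1 of 4, beside 5.75% of all genes. Of the class II genes H2-Aa, H2-Ab1 and H2-Eb1 are listed at 0 in all 6 groups, and 0 of the 3 compared in the nucleus or the 1 in the cytoplasm were called.

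**Figure D5:**
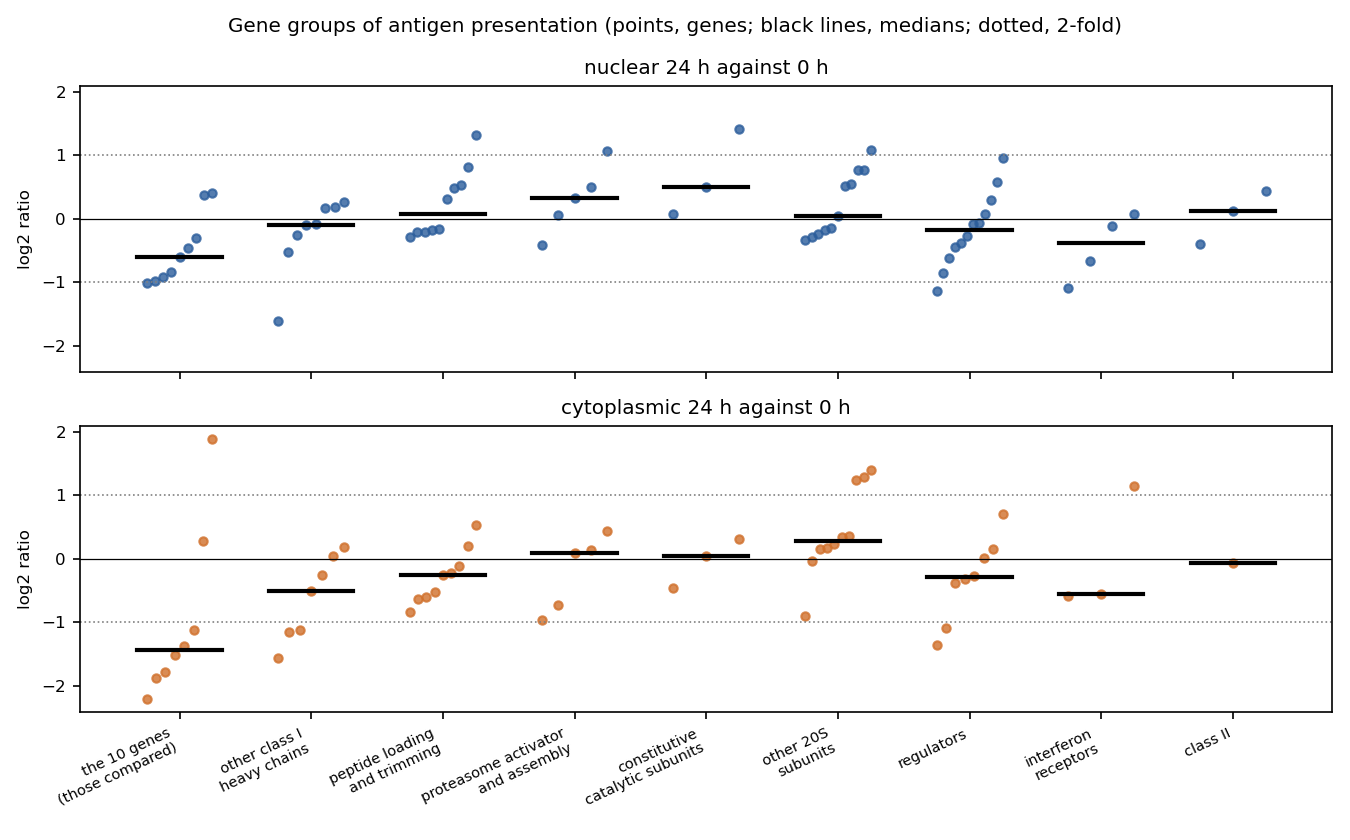
Log2 ratio at 24 h against 0 h in nuclear (top) and cytoplasmic (bottom) RNA for the 10 genes and for each list, with 1 point per gene that had enough reads, black lines for medians and dotted lines at 2-fold. In the cytoplasm the median of the first column is −1.44 and the medians of the lists lie between −0.55 and 0.29.

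Genes with the most similar course were sought by the distance between their 4 log2 ratios against 0 h and the members' medians (−0.34, −0.61, −0.89 and −1.44 for nuclear 12 and 24 h and cytoplasmic 12 and 24 h). Among 6050 genes ranked, Grn (distance 0.116), Itm2b (0.154) and Mpv17 (0.214) were closest, followed by Dennd4c, Idh3g, Rpl10a, Brwd3 and Rpl13 (0.302). Grn encodes progranulin and Itm2b a transmembrane protein. Of the 7 pathway genes with all 4 ratios, H2-D1 (0.368) lay closest to these medians, then H2-K1 (0.790), Tapbp (0.929), Tap1 (1.15), Psmb9 (1.16), Psmb8 (1.42) and B2m (2.64). The 8 genes were selected for this closeness. The ratios share their 0 h groups and rest on group means.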

How the data were processed

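RNA of 18 libraries in 6 groups was measured. Per the submitters' processing notes, the tools were HISAT2 2.2.0 for alignment, featureCounts and DESeq2, on the GRCm38 build. For the annotation release and the strand setting nothing is given in the sources used here. Counts were deposited as 1 table, which holds estimated counts in the sense of group means: 1 column per group, every value whole within 0.001 when multiplied by 3. The deposited TPM values of the authors, 1 file per group, served as an alternative. With means alone, the tests planned for replicated counts were replaced by the log2 ratio with an exact Clopper-Pearson 95% interval, from reads summed over 3 libraries (for the shift of location and for changes of a ratio of 2 genes, a normal approximation). The ratio was computed over all genes.

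Scaling was by the trimmed mean of M-values (30% of log ratios and 5% of mean expression trimmed), within a fraction for times and over all 6 groups for location. Genes with the equivalent of 10 counts at median depth in at least 1 group were compared, and calls needed 2-fold. Reads are not independent molecules, so intervals cover counting error only. Symbols came from GENCODE M21 (55227 of 55487 identifiers) and promoters from RefSeq. Computation used scipy 1.17.1, pandas 2.3.3 and numpy 2.4.6 under Python 3.11.15, and plots matplotlib 3.10.9. The ratio and its exact interval were run on simulated counts for 12 h against 0 h within each fraction. Those counts were drawn with counting error only, so the run cannot speak to spread between libraries. The normal-approximation intervals were not tested in this way. Members and gene lists were chosen with earlier results of these data known. All 10 members are described. From each list up to 4 genes with the largest absolute 24 h ratio (cytoplasmic, or nuclear where not compared there) and at least 1 CPM are named, plus Psmb5, Psmb6, Psmb7 and Irf1. A further gene that the rule names is not reported here. Other listed genes named were chosen after their values were seen. The 8 genes most like the members had at least 5 CPM in each fraction. Alternatives were other scalings, TPM with pseudocounts of 1 and 0.1, other filters and a 1.5-fold threshold.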

Additional observations from a re-analysis of the deposited data

Results flagged for a closer look

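Tapbp and Psmb8 had log2 ratios of opposite sign in the nucleus and the cytoplasm, with counting intervals that excluded 0 in both fractions, and the difference between the fractions was not tested over libraries. At 12 h against 0 h Tapbp was at 0.47 in the nucleus and −0.57 in the cytoplasm, a difference of 1.05. Psmb8 was at 0.54 and −0.48 at 12 h, a difference of 1.02. At 24 h Psmb8 was at 0.38 and −1.12, a difference of 1.501, and its nuclear ratio was −0.23 with TPM. Opposite-strand genes overlap 24.9% of the exonic bases of Tapbp and 14.7% of those of Psmb8. Zbtb22, which shares 4.11% of the exonic bases of Tapbp on the same strand, was at 28.5 CPM at 0 h and 55.5 at 12 h in the nucleus and at 158 and 137 in the cytoplasm.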

How the results depend on the processing

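No paired analysis was possible because the columns are group means with no replicate numbers, and for the same reason leaving out each replicate was not run. In the cytoplasm the genes called lower stayed at least 2-fold lower under the 6 other scalings and TPM settings, at both times, whereas Psmb10 did not. For lower calls this is a weak check. The TPM settings moved the median over all genes there by −0.49 to −0.73, and the other scalings by −0.13 to 0.09. The cytoplasmic counts of 5 genes called at 12 h and 7 at 24 h stayed within 1.5 times under every alternative run, although with log2(TPM + 1) they were 6 and 6, all lower. Other counts moved. Nuclear calls at 12 h were 2 with total-count scaling, 1 with log2(TPM + 1), 2 with log2(TPM + 0.1) and 4 at 1.5-fold, in place of 0. Nuclear calls at 24 h were 4, 3, 6 and 5 in the same order, and 0 with a filter of 30 counts, in place of 1. Lower calls over all 17295 genes at 24 h were 2056, 2337, 4034 and 2509 in that order, in place of 995. Nuclear calls between 12 and 24 h were 1 with log2(TPM + 0.1) and 2 at 1.5-fold, and cytoplasmic ones 2 at 1.5-fold, in place of 0. With log2(TPM + 1), 3, 3 and 2 genes differed between fractions at 0, 12 and 24 h in place of 6, 6 and 7. With that setting 8182 of 17892 genes were called nuclear and 3800 cytoplasmic at 0 h. These calls were 8174 and 2208 of 17901 at 12 h, and 6895 and 3071 at 24 h. Shifts of location were 2 at 12 h and 2 at 24 h with total-count scaling, and 1 with log2(TPM + 1) and 3 with log2(TPM + 0.1) at 24 h, in place of 5. The cause of these changes was not tested. The median over all genes moved by −0.22 and −0.30 in the nucleus (12 and 24 h) with total counts and by up to −0.73 (cytoplasm, 12 h) with log2(TPM + 0.1). Higher calls over all genes made up 54.4% and 57.8% of nuclear calls at 12 and 24 h, and 31.9% and 27.5% with total counts. In the cytoplasm they made up 56.5% and 60.7%, and 15.5% and 21.6% with log2(TPM + 1). Among the other pathway genes, log2(TPM + 0.1) gave 0 higher and 14 lower in the cytoplasm at both times. With that setting 567 of 11751 genes were higher and 3867 lower at 12 h, and 559 and 2381 of 11748 at 24 h. Total counts gave 2 higher and 2 lower of the other pathway genes in the nucleus at 12 h, beside 873 and 1863 of 17295 genes. Depth limits Tap2, Nlrc5 and Psmb10, with 5 to 48 cytoplasmic reads each.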
